A study of Homo sapiens with 8 samples.

Results

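The genes described here encode the receptors that bind insulin and the insulin-like growth factors (IGFs), the adaptor proteins that the receptors act through, and the secreted proteins that bind IGFs. They were chosen by name: *IGF1R*, *INSR* and *IGF2R* as receptors, *IRS1* and *IRS2* as adaptors, and *IGFBP2*, *IGFBP3*, *IGFBP4*, *IGFBP5* and *IGFBP6* as binding proteins. All 10 were present in the counts of all 8 libraries, among 58051 genes counted, and all 10 were among the 17671 genes with enough reads to be tested. The study measured RNA in A375, a human melanoma cell line, to look for secreted factors at work when melanoma cells form adherens junctions after serum is withdrawn. Lines WT1, WT2, WT3 and WT4 were each grown from a single A375 cell, so every line is 1 clone, and each gave a library after 12 h in DMEM with 10% fetal bovine serum and another after 12 h in DMEM with 0% serum. There were thus 4 libraries with serum and 4 without, and all were made from total RNA depleted of ribosomal RNA. The labels say only WT, and the study calls A375 cells without its knockout of *NECTIN1* wild type. The name inside the deposit of the WT4 libraries differs from their labels, and the labels were followed.

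The IGF1 receptor and the insulin receptor are related tyrosine kinases of the cell surface. When a ligand binds, they phosphorylate adaptors of the IRS family, which recruit PI3-kinase and so activate AKT, a kinase that keeps FOXO transcription factors out of the nucleus. The receptor encoded by *IGF2R* has no kinase and takes IGF2 to lysosomes, while IGF-binding proteins hold IGFs outside the cell and can limit or prolong their access to the receptor. Serum is a source of these ligands for cultured cells, and signaling through the IGF1 receptor is known for its role in the growth and survival of melanoma cells.

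Reads counted on genes numbered 39647157, 67101005, 45095740 and 29759279 for WT1 to WT4 with serum. Without serum they numbered 40468165, 73341551, 37847737 and 53371498 in the same order of lines. Reads that aligned to several places were set aside before deposit, and with serum they came to 22.7% for WT1, 16.8% for WT2, 7.09% for WT3 and 10.1% for WT4, against 5.73% to 7.73% without serum. This share was higher with serum in WT1, WT2 and WT4, and a fit without the WT1 and WT2 libraries with serum is given below. Whether the share itself moved any gene was not tested. Below, CPM is the count brought to a common library size by the TMM method of edgeR, and RPKM is CPM per kilobase of exon, so that CPM compares a gene between libraries and RPKM compares genes with each other. The TMM factors were between 0.95 and 0.98 in the libraries with serum and between 1.03 and 1.055 in those without.

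Markers fixed for A375 and for other cell types were looked at before the genes of interest. Of 6 markers listed for undifferentiated melanoma (*AXL*, *NGFR*, *VIM*, *EGFR*, *CDH2* and *S100A6*), 0 stayed under 1 CPM in every library. They summed to between 2699 and 2938 CPM with serum and between 2289 and 2809 without. *VIM* was the most abundant at a mean of 1149 CPM, and *S100A6* had means of 714 CPM with serum and 726 without. Of 8 melanocytic markers, 4 stayed under 1 CPM in every library (*SOX10*, *PMEL*, *TYR* and *TYRP1*), and the list summed to between 54.8 and 67.8 CPM with serum and between 51.0 and 69.2 without, mostly from *MITF* at a mean of 36.6 CPM. *SOX10*, a defining factor of this lineage, had no read counted in any library, with 5.39% of its exon bases shared with *POLR2F* on the opposite strand, while *MITF* and *S100B* were counted in all 8. The labelled cell type thus has the markers listed here as undifferentiated, and 4 of its 8 melanocytic markers were at or near 0. How specific the listed genes are to 1 melanoma state was not tested.

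Markers of immune cells, endothelium and fibroblasts were low, while the epithelial sums were about as high as the melanocytic ones. Of 4 immune markers all 4 stayed under 1 CPM, with *CD14* the most abundant at 0.54 CPM, and sums of at most 0.85 CPM. Of the 3 endothelial markers, *CDH5* and *VWF* were measured, and they summed to at most 1.87 CPM, with *CDH5* the more abundant at 0.60 CPM. The 5 fibroblast markers summed to between 6.31 and 10.2 CPM with serum and between 7.96 and 10.3 without, with *LUM* the most abundant at 4.09 CPM and *COL1A2* under 1 CPM in every library. Of the 6 epithelial markers, *KRT1* had no count, *EPCAM* and *CDH1* stayed under 1 CPM, and the sums of 54.7 to 64.6 CPM with serum and 43.5 to 56.3 without came mostly from *KRT10* at 37.8 CPM. With TMM scaling, in each of the 4 lines the epithelial and undifferentiated sums were lower without serum and the fibroblast sum was higher. In WT1, WT2 and WT3 the undifferentiated sums differed by less than the TMM factors did, so their direction there depends on the scaling. Among single markers *PDGFRA* rose from a mean of 0.71 to 2.40 CPM (1.77, edgeR's adjusted p = 0.00767), while *KRT10* (-0.31, 0.0253) and *MITF* (-0.28, 0.0496) fell. With the line as a block, edgeR's adjusted p also passed for *AXL* (-0.35, 0.000588), *VIM* (-0.16, 0.0159) and *DCT* (-0.89, 0.0251), which were lower, and for *DCN* (0.90, 0.0125) and *S100B* (0.26, 0.0469), which were higher. In bulk RNA of this kind, fewer cells of a type and less RNA per cell cannot be told apart.

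Among the receptors, *IGF1R* was far more abundant than *INSR*, and taking serum away raised *INSR* and *IGF2R* but left *IGF1R* within the spread of the lines. *INSR* (ENSG00000171105) lies on chromosome 19 of GRCh38, from 7112265 to 7294414, and encodes the insulin receptor. With serum it was counted at 33.3, 34.7, 39.6 and 38.0 CPM in WT1 to WT4, and without serum at 49.5, 49.2, 45.3 and 52.7 CPM. Every library without serum was above every library with serum, with the narrowest gain in WT3 and the widest in WT1. Its log2 fold change was 0.44 (standard error 0.08), or 1.35-fold, and edgeR's Benjamini-Hochberg adjusted p for it was 0.00478. That result held in all 12 fits that left out 1 library or both libraries of a line. It was lost when the WT1 and WT2 libraries with serum, those with the most reads aligned to several places, were left out together (0.34, edgeR's adjusted p = 0.0723).

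*IGF2R* (ENSG00000197081, chromosome 6, 159969082 to 160111504) encodes the receptor that clears IGF2. Its level with serum was 163, 197, 191.5 and 185 CPM in WT1 to WT4, and without serum 215, 210.1, 213 and 217 CPM. The libraries did not overlap between conditions, and those without serum lay much closer together (SD 3.08 CPM) than those with serum (SD 14.8 CPM, n = 4 each), among which WT1 was lowest. The log2 fold change of 0.22 (standard error 0.07), or 1.16-fold, passed narrowly (edgeR's adjusted p = 0.0449). The call was kept in 1 of the 12 fits with a library or line left out (without WT4 with serum, adjusted p = 0.0414 from edgeR) and lost in the other 11, where edgeR's adjusted p ran from 0.054 to 0.209. With the line as a block *IGF2R* passed (0.22, edgeR's adjusted p = 0.0073), but not when WT1 was left out (0.16, 0.0995). Of its exon bases, 2.53% also lie in the pseudogene *CHP1P2* on the same strand, and reads there may have been left uncounted.

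*IGF1R* (ENSG00000140443, chromosome 15, 98648539 to 98964530) encodes the main receptor of IGF1. Its level was 337, 324.5, 308 and 323 CPM in WT1 to WT4 with serum and 323, 299.6, 281 and 312 CPM without. In each line the library without serum was the lower, by between 0.05 and 0.13 on the log2 scale, but the ranges of the conditions overlapped. That difference, -0.09 as a log2 fold change (standard error 0.06), did not pass (edgeR's adjusted p = 0.341). With the line as a block it did not pass either (-0.09, edgeR's adjusted p = 0.164), except when WT4 was left out (-0.10, 0.0423) or a correction for the GC content of transcripts was added (-0.17, 0.00318). Its sign turned when library sizes were not scaled by TMM (0.03, edgeR's adjusted p = 0.749).

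**Figure D1:**
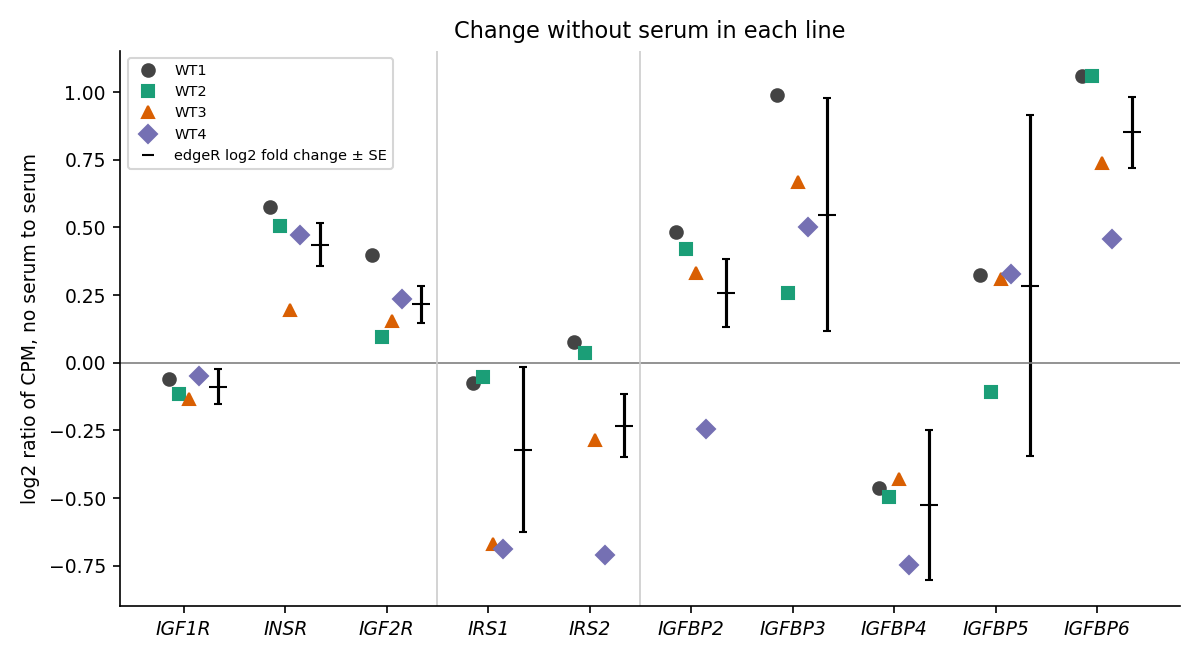
Log2 ratio of CPM without serum to CPM with serum (vertical axis) for each of the 10 genes (horizontal axis, receptors, adaptors and binding proteins separated by lines), with a point for each line and a bar for edgeR's log2 fold change ± its standard error. *INSR*, *IGF2R*, *IGFBP3* and *IGFBP6* are above 0 in all 4 lines, *IGF1R*, *IRS1* and *IGFBP4* below 0 in all 4, and *IRS2*, *IGFBP2* and *IGFBP5* on both sides.

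Taken per length, the receptors kept their order. With serum *IGF1R* was at 23.2 ± 0.87 RPKM, *IGF2R* at 8.14 ± 0.65 and *INSR* at 3.36 ± 0.27, and without serum they were at 21.8 ± 1.31, 9.46 ± 0.14 and 4.54 ± 0.28 RPKM (SD, n = 4). The ratio of *IGF1R* to *INSR*, which does not depend on how library sizes are scaled, was 7.88, 7.26, 6.05 and 6.60 in WT1 to WT4 with serum. Without serum it was 5.07, 4.73, 4.82 and 4.59. The ratio was thus lower without serum in every line and the conditions did not overlap, with means of 6.95 ± 0.79 and 4.80 ± 0.20 (SD, n = 4), given here as a description. RNA levels do not give the amounts of the receptor proteins at the surface, which were not measured.

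Of the adaptors, *IRS2* was the more abundant in every library, and neither gene passed the test without regard to line. *IRS1* (ENSG00000169047, chromosome 2, 226731312 to 226799820), the adaptor first found downstream of the insulin receptor, was at 81.7, 73.2, 88.2 and 48.2 CPM in WT1 to WT4 with serum and at 77.5, 70.5, 55.5 and 29.9 CPM without. WT4 was the lowest line in both conditions, and the drop was small in WT1 and WT2 but larger in WT3 and WT4, where the log2 ratios were -0.67 and -0.69. Over all lines *IRS1* differed by -0.32 on the log2 scale (standard error 0.30, edgeR's adjusted p = 0.484). With a library or line left out, the difference ran from -0.49 to -0.10. With the line as a block it was -0.36 (standard error 0.11) and passed (edgeR's adjusted p = 0.0228), but that call was lost without WT3 (-0.27, edgeR's adjusted p = 0.0976), without WT4 (-0.26, 0.34) and with the GC correction added (-0.43, 0.0733).

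*IRS2* (ENSG00000185950, chromosome 13, 109752695 to 109786583), an adaptor whose gene is a known target of FOXO factors in liver, was at 459, 479, 543 and 668.5 CPM with serum and at 484, 491, 446 and 409 CPM without. The lines did not move together: WT1 and WT2 were slightly higher without serum, while WT3 and WT4 were lower, and WT4 went from the highest library with serum to the lowest without. The log2 fold change of -0.23 (standard error 0.12) did not pass in edgeR's test (adjusted p = 0.176, or 0.211 with the block) and did so with the block and GC correction together (-0.41, edgeR's adjusted p = 0.0244). It was -0.11 without the WT4 library with serum, -0.06 without line WT4 and -0.11 without TMM scaling. Per length, *IRS2* was at 65.9 ± 11.6 RPKM with serum and 56.1 ± 4.62 without, against 7.27 ± 1.75 and 5.83 ± 2.10 RPKM for *IRS1* (SD, n = 4). Their ratio was 17 in WT4 with serum and 16.8 without, and between 6.90 and 9.89 in the other 6 libraries.

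The binding protein genes took different directions. *IGFBP6* rose, *IGFBP3* rose and *IGFBP4* fell once the line was taken into account, and *IGFBP2* and *IGFBP5* did not pass. *IGFBP6* (ENSG00000167779, chromosome 12, 53097667 to 53102340), whose protein binds IGF2 in preference to IGF1, was at 23.4, 25.2, 25.4 and 24.02 CPM in WT1 to WT4 with serum and at 48.8, 52.6, 42.4 and 33.0 CPM without. The lines were nearly alike with serum and spread out without it, with WT2 highest and WT4 lowest, and every library without serum was above every library with it. It rose by 0.85 on the log2 scale (standard error 0.13), or 1.80-fold (edgeR's adjusted p = 0.00251), and this was so in all 12 fits with a library or line left out. With the block and GC correction the change was 0.56 (edgeR's adjusted p = 8.25e-06), against 0.84 with the block alone. Its transcript is rich in GC, at 64.1% against a median of 47.9% over the tested genes, and genes richer in GC had higher log2 fold changes overall (Spearman's rho of 0.36 over 17425 genes, which are not independent replicates).

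*IGFBP3* (ENSG00000146674, chromosome 7, 45912245 to 45921272) encodes the main carrier of IGFs in blood. It was at 45.7, 89.7, 29.5 and 90.2 CPM with serum and at 90.8, 107, 46.8 and 128 CPM without. Each line was higher without serum, with log2 ratios from 0.26 in WT2 to 0.99 in WT1, but the lines differed so much that the conditions overlapped widely. An overall log2 fold change of 0.55 (standard error 0.43) did not pass without regard to line (edgeR's adjusted p = 0.395), and with the line as a block it was 0.60 (standard error 0.09, edgeR's adjusted p = 0.000208). The unblocked value ran from 0.31 to 0.76 with a library or line left out. Left without WT4, the blocked fit no longer called *IGFBP3* (0.62, edgeR's adjusted p = 0.112).

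*IGFBP4* (ENSG00000141753, chromosome 17, 40443450 to 40457725), a binding protein that restrains IGF action until it is cut by the protease PAPP-A, was at 361, 471, 231 and 301 CPM with serum and at 262, 334, 171.5 and 179 CPM without. It was lower without serum in each line, most in WT4, while WT2 was the highest line and WT3 the lowest in both conditions. Its log2 fold change was -0.53 both without the block (standard error 0.28, edgeR's adjusted p = 0.204) and with it (standard error 0.06, edgeR's adjusted p = 7.09e-06). The unblocked value ran from -0.74 to -0.33 with a library or line left out. It was -0.17 without the WT1 and WT2 libraries with serum. That fit kept WT1 and WT2 without serum and had no block, so its lines were not balanced between conditions. Within the lines, the log2 ratios of *IGFBP4* were between -0.75 and -0.43. The blocked call held with each of the 4 lines left out (edgeR's adjusted p of at most 0.000416), and with the GC correction the change was -0.79 (edgeR's adjusted p = 5.98e-09).

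*IGFBP2* (ENSG00000115457) and *IGFBP5* (ENSG00000115461) are neighbours on chromosome 2, from 216632828 to 216664436 and from 216672105 to 216695549, 7669 bases apart. *IGFBP2* was at 76.8, 72.9, 91.2 and 92.0 CPM with serum and at 107.5, 97.7, 115 and 77.7 CPM without. WT1, WT2 and WT3 were higher without serum and WT4 was lower, so that the log2 fold change of 0.26 (standard error 0.13) did not pass (edgeR's adjusted p = 0.165). Without WT4 it was 0.41 and passed (edgeR's adjusted p = 0.0121), as it did without the WT4 library lacking serum (0.36, 0.0444) and without TMM scaling (0.38, 0.0437), and with the block and GC correction it was 0.09 (0.477). Next to it, *IGFBP5* was at 7.42, 3.12, 2.55 and 10.3 CPM with serum and at 9.29, 2.89, 3.16 and 12.9 CPM without, with WT1 and WT4 above WT2 and WT3 in both conditions. Its change of 0.28 on the log2 scale (standard error 0.63) did not pass (edgeR's adjusted p = 0.78) and turned to -0.19 without the WT4 library lacking serum. With both libraries of a line left out, the change of *IGFBP5* was between 0.23 and 0.34. Of its exon bases, 7.53% lie in the antisense gene *DIRC3-AS1*, so its counts are uncertain to that extent.

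**Figure D2:**
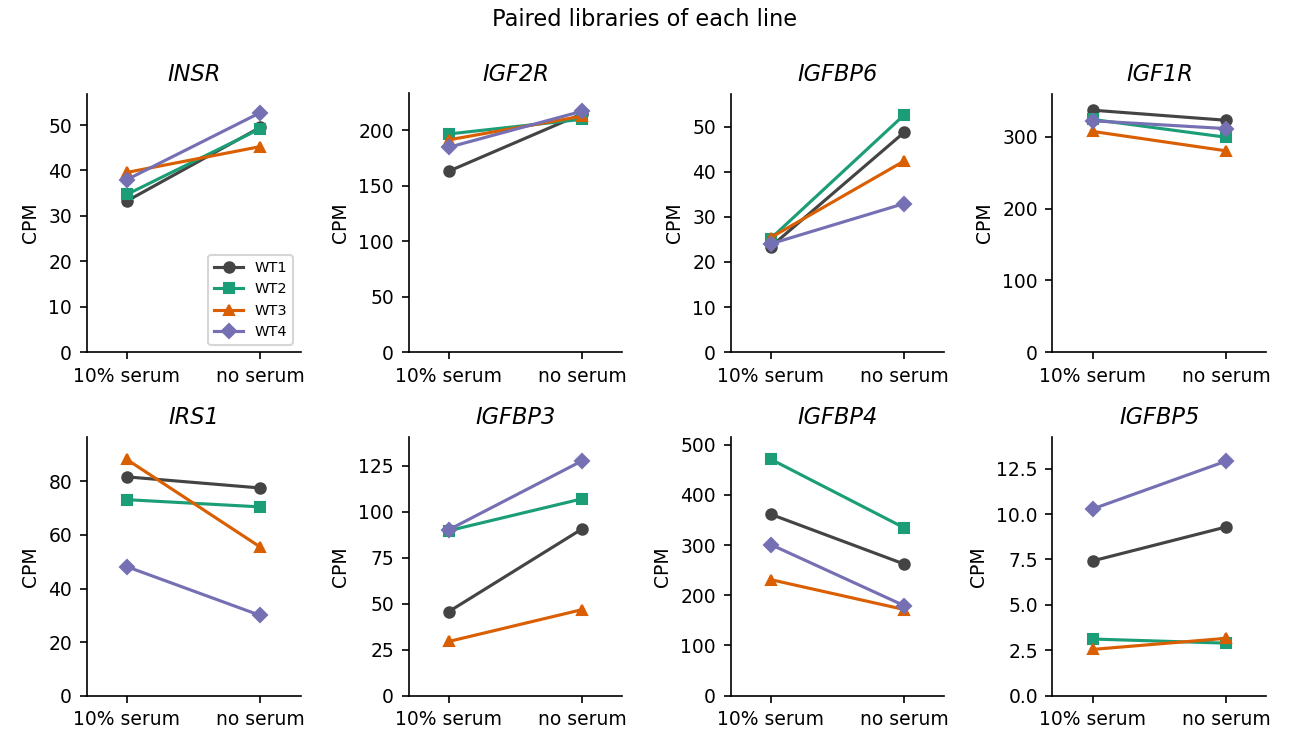
CPM (vertical axes, starting at 0) of 8 genes in the library with 10% serum and the library without serum of each line, joined by a line for WT1 to WT4. The groups are apart for *INSR*, *IGF2R* and *IGFBP6*, while for *IRS1*, *IGFBP3*, *IGFBP4* and *IGFBP5* the lines differ more than the conditions do.

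Counted over the list, 3 of the 10 genes passed edgeR's test without the block and all 3 were higher without serum, where 11.1% of all tested genes were called higher. None was called lower, where 14% of all tested genes were, and 25.1% were called in either direction. At an unadjusted p under 0.05 edgeR also had 0 genes lower, and DESeq2 and limma voom each called 3 genes, 0 of them lower. The genes whose libraries did not overlap between conditions were the same 3, *INSR*, *IGF2R* and *IGFBP6*, and 27.5% of all tested genes had no overlap. The median log2 fold change was 0.24 over the 10 genes and 0.03 over all tested genes. With so few genes a share of 3 in 10 is near the background.

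With the line as a block, 6 of the 10 passed, and 45.7% of all tested genes did. The 4 higher were *INSR*, *IGF2R*, *IGFBP3* and *IGFBP6*, where 23.2% of all tested genes were higher, and the 2 lower were *IRS1* and *IGFBP4*, where 22.4% were lower. Over all genes 4434 passed without the block, 1957 higher and 2477 lower, and 8067 passed with it. The split between directions depended on scaling, with 2508 higher and 1843 lower under upper-quartile scaling and 3168 higher and 1365 lower without TMM, where the median of all tested genes moved from 0.03 to 0.15. *IGF1R* was below the median of all tested genes in both cases, at -0.09 with TMM and 0.03 without.

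Differences among the 4 lines, tested over both conditions, passed for 4 of the 10 genes, where 22.9% of all tested genes passed. These were *IRS1* (adjusted p = 0.00364 from edgeR's F test over lines), *IGFBP3* (edgeR's adjusted p = 1.38e-05), *IGFBP4* (edgeR's adjusted p = 3.18e-06) and *IGFBP5* (edgeR's adjusted p = 8.14e-07). None of the 3 receptors passed (edgeR's adjusted p of at least 0.332), nor did *IRS2*, *IGFBP2* or *IGFBP6*. With serum the highest line stood above the lowest by 4.04-fold for *IGFBP5*, 3.06-fold for *IGFBP3*, 2.04-fold for *IGFBP4* and 1.83-fold for *IRS1*, but by at most 1.21-fold for the receptors. No line was highest throughout: *IGFBP4* was highest in WT2 and *IGFBP3* and *IGFBP5* in WT4, while *IRS1* was lowest there. Left without WT4, *IRS1* (edgeR's adjusted p = 0.846) and *IGFBP3* (0.134) no longer passed and *IGFBP2* did (0.00274). Whether the response to serum differs between lines could not be tested with 1 library for each line and condition.

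Between genes, the levels spanned more than the responses did. In order of RPKM with serum, *IGFBP4* came first at 155 ± 46.1, followed by *IRS2* at 65.9 ± 11.6, *IGF1R* at 23.2 ± 0.87, *IGFBP6* at 18.2 ± 0.71, *IGFBP2* at 17.5 ± 2.07, *IGFBP3* at 14.0 ± 6.78, *IGF2R* at 8.14 ± 0.65, *IRS1* at 7.27 ± 1.75, *INSR* at 3.36 ± 0.27 and *IGFBP5* at 0.90 ± 0.57 (SD, n = 4). The libraries of neighbours in this order did not overlap down to *IGFBP6*, while *IGFBP6* to *IRS1* formed a run in which each overlapped the next, and *INSR* and *IGFBP5* stood apart below. *IGFBP4* ranked at 225 and *IRS2* at 592 among the 17425 tested genes with a length, whose median was 2.75 RPKM, and *IGFBP5* was the only one of the 10 under that median.

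Without serum *IGFBP6* moved up to place 3 at 32.8 ± 6.39 RPKM, above *IGF1R* at 21.8 ± 1.31, *IGFBP2* at 21.0 ± 3.39 and *IGFBP3* at 20.4 ± 7.52. This order is that of the means, and in WT4 *IGFBP3* at 28.0 RPKM was above *IGFBP6* at 24.5. *IGF1R* and *IGFBP2* overlapped, as did *IGFBP2* and *IGFBP3*, and *IRS1* at 5.83 ± 2.10 overlapped *INSR* at 4.54 ± 0.28 RPKM. *IGFBP4* was at 107 ± 34.8 RPKM, *IRS2* at 56.1 ± 4.62 and *IGFBP5* at 1.09 ± 0.76 (SD, n = 4). The order was the same without TMM scaling. With the length of the longest transcript in place of all exons, *IGFBP3* came in place 4 in both conditions, at 24.2 RPKM with serum and 35.4 without, and the genes between shifted down by 1 place.

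**Figure D3:**
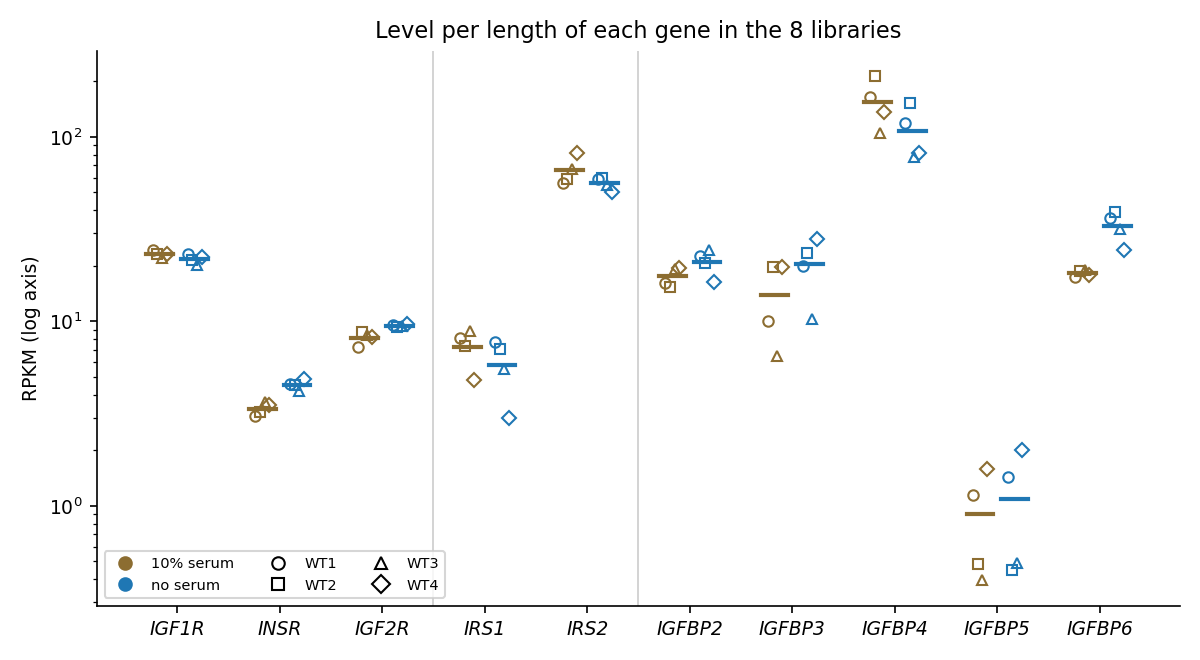
RPKM of the 10 genes on a log axis, with brown symbols for the 4 libraries with 10% serum, blue symbols for the 4 without, a symbol shape for each line and a bar at each mean. *IGFBP4* lies above 70 RPKM in every library, *IGFBP5* stays under 3, and the lines are tight for the receptors and wide for *IGFBP3* and *IGFBP5*.

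The binding protein genes together summed to 209, 268, 149.8 and 195 RPKM in WT1 to WT4 with serum and to 199, 235, 144 and 152 RPKM without. With TMM scaling the sum was lower without serum in each line, but the conditions overlapped, and in WT1 and WT3 the sums differed by less than the TMM factors did, so the direction there depends on the scaling. *IGFBP4* made up 78.6%, 79.8%, 70.0% and 70.0% of the sum with serum and 59.7%, 64.4%, 53.9% and 53.4% without. *IGFBP6* made up 8.33%, 6.98%, 12.6% and 9.15% with serum and 18.2%, 16.6%, 21.8% and 16.1% without. For these genes the shares did not overlap between conditions, the share of *IGFBP4* being lower and that of *IGFBP6* higher without serum in every line, which is given as a description. The mean shares of *IGFBP3* were 6.63 ± 2.66% and 11.4 ± 4.88%, those of *IGFBP2* 9.06 ± 3.03% and 11.9 ± 3.43%, and those of *IGFBP5* 0.45 ± 0.29% and 0.64 ± 0.50% (SD, n = 4).

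**Figure D4:**
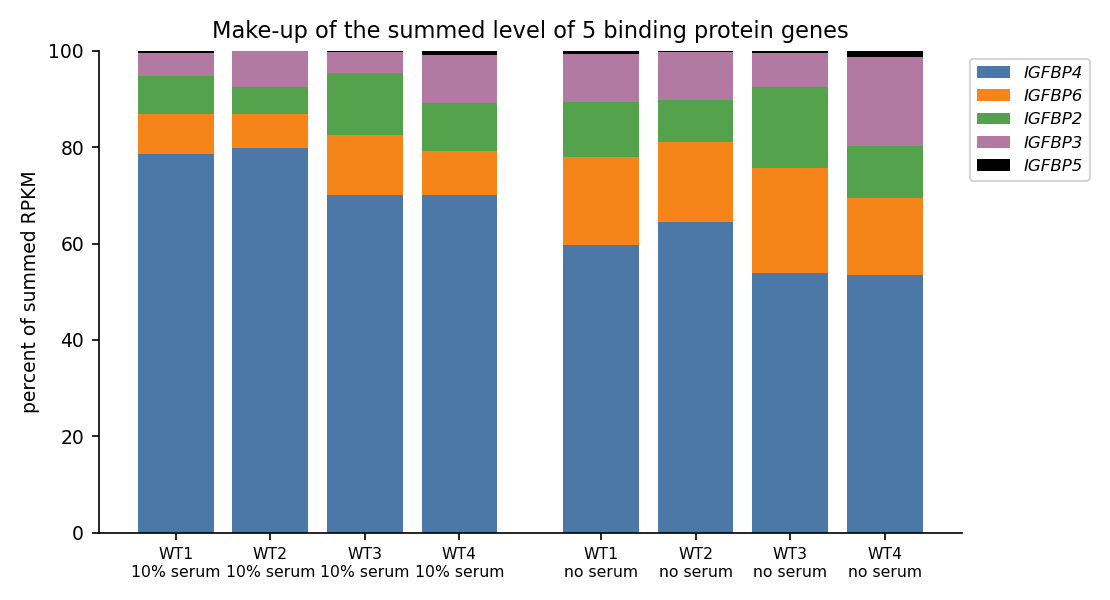
Share of each of 5 binding protein genes in their summed RPKM (percent, vertical axis from 0) in each library, those with serum on the left and those without on the right. *IGFBP4* is the main part of every bar, between 70.0% and 79.8% with serum and between 53.4% and 64.4% without.

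The promoters of the 3 genes that rose are shown beside that of *IRS2*, because forkhead factors of the FOXO group act at insulin-regulated genes and their core letters can be looked for. RefSeq windows of 300 bases, from 250 before to 50 after the start site, were found for all 10 genes, with 3 windows for *IGFBP2* and 12 in all. The letters GTAAACA and CAAAACA were searched on both strands, counted apart from each other. GTAAACA or its reverse complement TGTTTAC was in 3.42% of the 35116 promoter windows of the table, and CAAAACA or its reverse complement TGTTTTG in 4.92%. Of the 10 genes, *IGFBP6* held GTAAACA, 186 bases before its start, and *IRS2* held TGTTTTG, 40 bases before its start. No other window of the 10 genes held either. The sequences are from RefSeq on GRCh38.p14 and are written 5′ to 3′ on the strand of the gene, with the matched letters in capitals: *IGFBP6* at chr12:53097417-53097716 (plus strand), *IRS2* at chr13:109786534-109786833 (minus strand), *INSR* at chr19:7294365-7294664 (minus strand) and *IGF2R* at chr6:159968832-159969131 (plus strand).
IGFBP6: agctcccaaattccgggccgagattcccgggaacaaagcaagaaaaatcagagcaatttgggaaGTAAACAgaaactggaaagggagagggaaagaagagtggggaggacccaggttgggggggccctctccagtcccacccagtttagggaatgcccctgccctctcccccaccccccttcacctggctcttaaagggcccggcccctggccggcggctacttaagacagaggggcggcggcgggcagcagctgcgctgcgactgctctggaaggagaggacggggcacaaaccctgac
IRS2: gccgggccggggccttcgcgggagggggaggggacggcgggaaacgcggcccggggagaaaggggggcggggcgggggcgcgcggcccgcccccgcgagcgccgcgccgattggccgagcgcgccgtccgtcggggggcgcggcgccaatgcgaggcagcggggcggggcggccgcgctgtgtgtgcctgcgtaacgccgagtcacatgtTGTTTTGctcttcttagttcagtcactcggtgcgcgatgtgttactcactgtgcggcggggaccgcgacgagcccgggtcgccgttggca
INSR: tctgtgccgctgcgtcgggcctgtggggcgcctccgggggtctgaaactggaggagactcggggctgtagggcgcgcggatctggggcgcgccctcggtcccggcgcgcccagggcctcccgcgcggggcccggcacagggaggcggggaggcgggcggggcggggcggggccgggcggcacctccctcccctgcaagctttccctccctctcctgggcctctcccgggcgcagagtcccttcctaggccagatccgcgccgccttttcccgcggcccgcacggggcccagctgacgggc
IGF2R: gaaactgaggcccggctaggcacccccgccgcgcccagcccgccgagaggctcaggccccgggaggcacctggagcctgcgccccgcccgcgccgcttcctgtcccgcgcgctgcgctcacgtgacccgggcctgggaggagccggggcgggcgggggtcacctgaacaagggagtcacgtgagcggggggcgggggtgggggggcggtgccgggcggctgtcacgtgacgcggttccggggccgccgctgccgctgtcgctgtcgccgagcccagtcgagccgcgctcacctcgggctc
The *IGFBP6* window was 61.7% G or C with 12 CpG, near the medians of 58.7% and 14 CpG over all windows. The windows of *IRS2*, *INSR* and *IGF2R* were at 75.7%, 78.3% and 78.7% G or C with 50, 36 and 41 CpG. A match describes these letters only, and the absence of one says only that they are not in the window.

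The genes most like *INSR*, *IGF2R* and *IGFBP6* in pattern were found over the 8 libraries by Pearson's correlation of log2 CPM among 11531 protein-coding genes averaging 100 counts or more. For *INSR* they were *ATRN* (r = 0.987) and *UBE4B* (0.986), for *IGF2R* *HKDC1* (0.978) and *C20orf204* (0.975), and for *IGFBP6* *VSIR* (0.98) and *HDAC11* (0.974). The libraries share lines and conditions, and the 6 genes were picked in these same libraries for following genes called higher. Their correlations and their changes without serum are thus descriptions only. Of the 6 genes, *VSIR* (0.96, adjusted p = 0.00399 from edgeR) and *HDAC11* (0.92, edgeR's adjusted p = 0.00629) rose without serum by more than *IGFBP6* did on the log2 scale. *HKDC1* (0.69, edgeR's adjusted p = 0.0332), *C20orf204* (0.44, 0.0298) and *UBE4B* (0.18, 0.0412) rose as well, and *ATRN* (0.16, edgeR's adjusted p = 0.0692) did not pass.

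The ligands of these receptors were at or near 0. *IGF1* and *INS* had 0 counts in all 8 libraries, which for counting error alone allows up to 3 counts, or 0.106 CPM in the shallowest library and 0.0393 CPM in the deepest. *IGF2* had 1, 4, 1 and 1 counts in WT1 to WT4 with serum and 0, 8, 1 and 5 without, too few for a comparison, and none of the 3 genes was tested. These zeros have a limit of their own in how reads are assigned. Of the exon bases of *IGF1*, 82.5% also lie in *HELLPAR*, a noncoding gene of the opposite strand on which 42702 reads were counted over the 8 libraries, and a counter that ignores strand leaves reads on shared bases unassigned. For *INS* the shared part was 37.5%, all with *INS-IGF2*, which had 0 counts, and for *IGF2* it was 26.9%.

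Of 8 genes that set how much ligand is available, 6 were tested and 0 passed edgeR's test, where 25.1% of all tested genes did, with 1 higher and 1 lower at an unadjusted p under 0.05 and 0 called by DESeq2 or limma voom. Their median log2 fold change was -0.16, against 0.03 over all tested genes. Highest over the 8 libraries were *IDE*, which encodes a protease that degrades insulin, at 7.48 RPKM with serum and 6.45 without (-0.21, edgeR's adjusted p = 0.0834), and *IGFBP7* at 3.59 and 3.96 RPKM (0.14, edgeR's adjusted p = 0.651). With the block 3 of the 6 passed, where 45.7% of all tested genes did: *IGFALS* higher (0.58, edgeR's adjusted p = 0.0434) and *STC2* (-0.55, 0.000117) and *IDE* (-0.21, 0.0097) lower, the first 2 of these named after their values were seen. With the GC correction added, *STC2* alone passed (-0.61, edgeR's adjusted p = 1.92e-05), while *IDE* was at -0.03 (0.681) and *IGFALS* at 0.23 (0.417).

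The 3 genes for IGF2 mRNA-binding proteins were 0 of 3 without the block in edgeR and limma voom and 1 of 3 in DESeq2, with 1 higher and 1 lower at an unadjusted p under 0.05, and 3 of 3 with the block, 1 higher and 2 lower, against 25.1% of all tested genes without the block and 45.7% with it. *IGF2BP2* was at 24.9 RPKM with serum and 21.7 without (-0.20, edgeR's adjusted p = 0.232 unblocked and 0.00894 with the block) and *IGF2BP1* at 20.7 and 16.7 (-0.31, edgeR's adjusted p = 0.067 unblocked and 0.000281 with the block).

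Close to the receptors, 4 of 9 tested genes passed, 2 higher and 2 lower, where 25.1% of all tested genes passed, with a median log2 fold change of 0.16. *SH2B2*, an adaptor of the insulin receptor, rose from between 2.49 and 4.25 CPM with serum to between 5.63 and 6.86 without (0.99, edgeR's adjusted p = 0.00536), and *GAB1*, a docking protein, from between 9.30 and 11.1 to between 13.3 and 15.6 CPM (0.44, edgeR's adjusted p = 0.0137). *GRB2*, the adaptor that links receptors to RAS, fell from between 161 and 166 to between 130.2 and 137 CPM (-0.30, edgeR's adjusted p = 0.00475), and *PTPN11*, which encodes the phosphatase SHP2, fell as well (-0.36, edgeR's adjusted p = 0.0227). *SHC1* and *GRB2* had the highest means of the list over the 8 libraries, at 54.4 and 34.7 RPKM with serum. In that condition *PTPN11*, at a mean of 34.6 RPKM, was above *GRB2* in WT1, WT2 and WT3 and below it in WT4. *SHC1* did not pass (0.00 on the log2 scale, edgeR's adjusted p = 0.996) except with the block and GC correction together (-0.15, 0.00795). With the block 6 of 9 passed, against 45.7% of all tested genes. Among these was *IRS4*, of the IRS family, named after its values were seen. It differed widely between lines, at between 0.32 and 4.09 CPM with serum and between 0.85 and 14.1 without. Each line was higher without serum. Its log2 fold change was 1.72 without the block (edgeR's adjusted p = 0.197) and 1.74 with it (edgeR's adjusted p = 7.95e-07). With the GC correction added to the block, *SH2B2* was at 0.62 (edgeR's adjusted p = 0.00128), against 1.02 with the block alone.

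Of the PI3-kinase, AKT, mTOR and FOXO genes, 4 of 23 tested passed, 2 higher and 2 lower, where 25.1% of all tested genes passed, and the median was -0.01. Those that rose were *FOXO4*, from between 7.21 and 11.9 CPM to between 18.8 and 25.8 (1.17, edgeR's adjusted p = 0.00285), and *FOXO3*, from between 26.5 and 30.8 CPM to between 39.4 and 50.2 (0.64, edgeR's adjusted p = 0.00184), both encoding transcription factors that AKT restrains. Those that fell were *RPS6KB1*, which encodes the S6 kinase (-0.31, edgeR's adjusted p = 0.0201), and *PIK3CB*, a catalytic subunit of PI3-kinase (-0.23, edgeR's adjusted p = 0.0438). The most abundant, *EIF4EBP1* at 156 RPKM with serum and *RHEB* at 37.5, did not pass (-0.26 and -0.22, edgeR's adjusted p = 0.152 and 0.0723) and did so with the block (edgeR's adjusted p = 0.00817 and 0.00736), where 7 of 23 passed against 45.7% of all tested genes. With the block and GC correction together 16 of 23 passed, as did 8090 of 17425 genes, and *PIK3CB* did not (-0.10, edgeR's adjusted p = 0.0696). *RPS6KB1* moved there from -0.31 to -0.14 and *EIF4EBP1* from -0.25 to -0.50 (edgeR's adjusted p = 0.0385 and 3.82e-07). *PIK3R2* was not tested, and 76.4% of its exon bases lie in another gene of the same strand.

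Among negative regulators 6 of 16 tested genes passed, 4 higher and 2 lower, where 25.1% of all tested genes passed, with a median log2 fold change of 0.06. With the block 9 of 16 passed, 5 higher and 4 lower, against 45.7% of all tested genes. *TRIB3*, which encodes an inhibitor of AKT, fell from between 66.8 and 94.6 CPM to between 51.4 and 63.7 (-0.43, edgeR's adjusted p = 0.0206). *INPPL1*, a lipid phosphatase, rose from between 129 and 161 CPM to between 183 and 213 (0.44, edgeR's adjusted p = 0.00613), and *PHLPP1*, an AKT phosphatase, rose too (0.34, edgeR's adjusted p = 0.0228). *PTPRF* and *PTPN1*, phosphatases of the insulin receptor, had the highest means over the 8 libraries, at 49.99 and 38.4 RPKM with serum and 36.7 and 35.6 without, and neither passed (-0.45 and -0.11, edgeR's adjusted p = 0.171 and 0.184), though *PTPRF* did with the block (edgeR's adjusted p = 1.75e-05). The GC correction, added to the block, gave 0.22 for *INPPL1*, 0.19 for *PHLPP1* and -0.66 for *TRIB3* (edgeR's adjusted p = 0.000634, 0.00936 and 9.94e-05), against 0.44, 0.34 and -0.42 with the block alone.

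**Figure D5:**
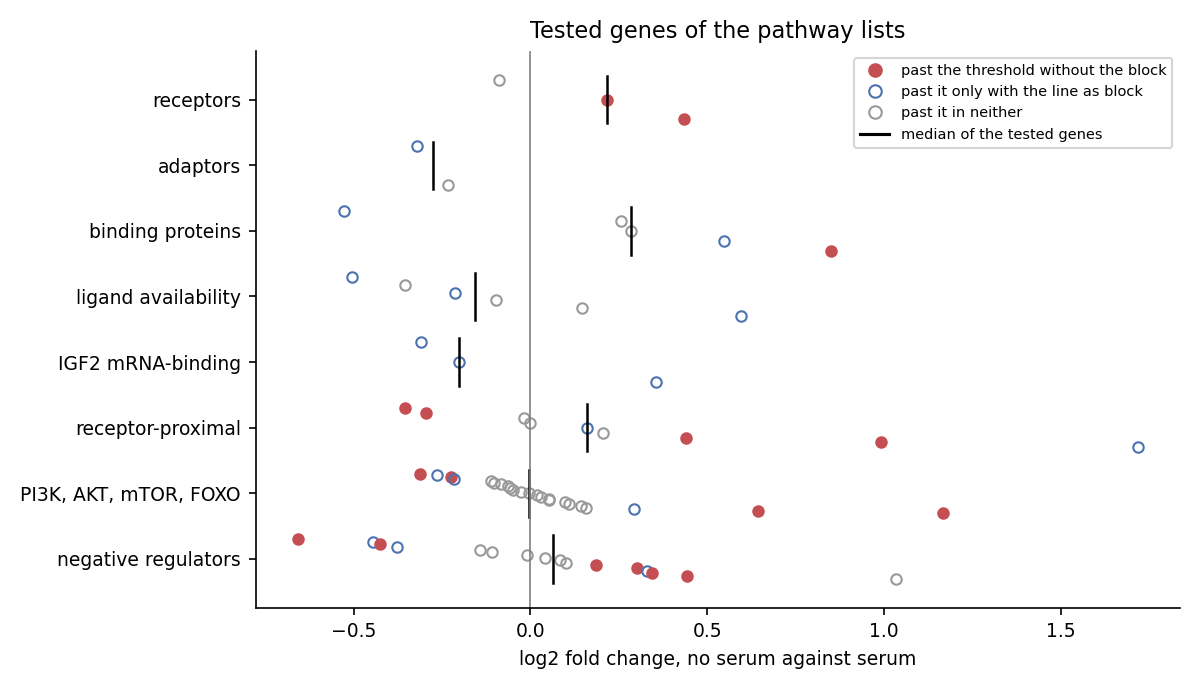
Log2 fold change without serum against serum (horizontal axis) of each tested gene of 8 lists (vertical axis), with filled red points past the threshold without the block, open blue points past it only with the line as a block, open grey points past it in neither and a black bar at each list's median. The list medians lie between -0.28 and 0.28. Receptor-proximal genes, negative regulators and the PI3-kinase, AKT, mTOR and FOXO genes have points past the threshold on both sides of 0.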

How the data were processed

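RNA was measured in 8 libraries of 4 A375 lines, paired by line, 4 with and 4 without serum, grouped by the submitters' labels. The authors deposited raw counts of reads per gene as whole numbers, not normalized. The submitters' processing notes name cutadapt, TopHat2 2.0.11, HTSeq and GRCh38, with no word on which annotation was counted or whether strand was used, so overlapping and antisense genes are uncertain. The study's methods describe another genome build and FPKM values, which were not used here. Reads marked as ambiguous or aligned to several places were kept out of library sizes and tests, and made up 8.23% to 11.5% and 5.73% to 22.7% of the reads listed in a library.

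Of 58051 Ensembl identifiers, 55604 received a symbol. Positions and promoters are from RefSeq on GRCh38.p14. Exon lengths, GC content and shared exon bases came from GENCODE release 44 lifted to an older build than that of the counts, with merged exons as the length. All fits ran in R 4.3.3. The edgeR 4.0.16 fit used filterByExpr for the filter, TMM for library sizes, and the quasi-likelihood functions glmQLFit (robust) and glmQLFTest, with Benjamini-Hochberg adjustment over 17671 genes and a threshold of 0.05. The standard error is the log2 fold change divided by the root of F. Log2 CPM used a prior count of 2.

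The line number pairs the libraries, since both libraries of a line come from the same clone. Deviations from the condition means correlated at 0.403, 0.591, 0.456 and 0.604 within WT1 to WT4 and at most at 0.126 in the 12 pairs of different lines. The blocked fit, with and without a GC correction (loess of span 0.3 per library), DESeq2 1.42.0, limma voom (limma 3.58.1), RLE and upper-quartile scaling, no filter, at least 10 counts in every library, and leaving out each library and each line were the alternatives. Fits without TMM scaling and without the WT1 and WT2 libraries with serum were added after seeing the data. The latter kept the WT1 and WT2 libraries without serum and had no block. The code was tested on simulated data. The genes and the lists were chosen with earlier results of these data known. Named were the 10 genes, the ligands, up to 4 genes with the smallest p past the threshold and the 2 with the highest mean RPKM over the 8 libraries of each other list, and 2 genes most like each called gene. *PECAM1*, an endothelial marker, had no matching symbol and is not analysed here. Some genes that the rule names are not reported here.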

Additional observations from a re-analysis of the deposited data

Results flagged for a closer look

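Over 82 sets of 4 values (named genes and ratios, each over the 4 lines of a condition), 3 had a line whose distance from its nearest neighbour was large beside the whole range, and chance gives about 4.1, or 1 in 20. The ratio of *IRS2* to *IRS1* with serum was 17 in WT4 against 6.90 to 8.04 in the other lines. *GAB1* without serum was 15.6 CPM in WT1 against 13.3 to 13.6 CPM. *VSIR*, the gene most like *IGFBP6*, was 10.6 CPM in WT3 with serum against 8.22 to 8.52 CPM.

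In 3 of the 10 genes the lines moved in opposite directions, which was not tested, since each line has 1 library in a condition. The log2 ratio without serum to serum of *IRS2* was 0.0752 in WT1 and 0.0348 in WT2 against -0.28 and -0.71 in WT3 and WT4. That of *IGFBP2* was -0.24 in WT4 against 0.33 to 0.48 in the other lines. That of *IGFBP5* was -0.11 in WT2 against 0.31 to 0.33 in the other lines.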

How the results depend on the processing

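Replicates are 4 clones of 1 line, so the results hold for A375 under this culture. Added after seeing the data were the fit without TMM scaling and the fit without the WT1 and WT2 libraries with serum. Against 4434 genes called in edgeR's unblocked fit, the line as a block gave 8067, the block with the GC correction 8090, and the fit without the WT1 and WT2 libraries with serum 1098, while leaving out a library or line gave 1589 to 6128. Of the 10 genes, 3 were called in the unblocked fit, 6 with the block, 7 with the block and GC correction and 1 without those WT1 and WT2 libraries, and 2 to 3 with a library or line left out. The block changed the calls of *IRS1*, *IGFBP3* and *IGFBP4* and no other of the 10. With the block, leaving out a line gave 5 to 6, and the test among lines gave 3 to 4. *IGF2R* was also lost under RLE scaling (edgeR's adjusted p = 0.0527) and with no filter (0.113). *IGF1R* turned to 0.0323 without TMM scaling. *IGFBP5* ran from -0.19 to 0.70 with 1 library left out, but only from 0.23 to 0.34 with both libraries of a line left out. The cause was not tested. IGF2 mRNA-binding genes called went from 0 to 3 with the block and with the block and GC correction, to 1 with DESeq2, with no filter and without TMM scaling, and to between 0 and 2 in leave-outs. For ligand availability, 0 became 3 with the block and 1 with the block and GC correction, and 0 to 2 in leave-outs. Negative regulators went from 6 to 1 without the WT1 and WT2 libraries with serum and 2 to 8 in leave-outs. For PI3-kinase, AKT, mTOR and FOXO genes, 4 became 7 with the block, 16 with the block and GC correction, and 2 to 5 in leave-outs. Receptor-proximal genes went from 4 to 7 with the block and GC correction, 0 without the WT1 and WT2 libraries with serum, and 1 to 5 in leave-outs. Where a line was left out, 3 libraries remained in each condition. Counts of at most 8 in a library left the ligands untested.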
